A study of Mus musculus with 11 samples.

Results

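Adipokines are the proteins that fat tissue releases into the circulation or into its own surroundings. The genes described here are Lep, Adipoq, Retn, Cfd, Nampt and Apln, which were given as a list of symbols with no threshold on their values, by a choice made with earlier results of these data known, and all 6 were among the 12787 genes of the deposited table. They were measured by RNA sequencing of gonadal white adipose tissue (WAT) from male C57Bl6/J mice that had eaten a 60% high fat diet (HFD) for 20 weeks. The HFD control group had 5 mice on vehicle, and the HFD + IMC group had 6 mice whose diet also held 0.06% w/w iodomethylcholine (IMC), a small molecule that blocks the gut bacterial enzyme turning choline into trimethylamine. Both groups were wildtype, so the diet was shared and IMC was the difference by design. The age of these mice, which of them shared a cage and the hour of collection were not given in the labels. A sixth control library was dropped by the submitters after quality control and was not analysed here. The comparison asks how adipokine transcripts differed with the inhibitor in mice fed HFD. The paper reports that IMC blunted obesity and reduced fat mass in mice fed HFD, so the groups may also have differed in adiposity. Body weight and fat mass of the sequenced mice were not analysed here, and their part in the transcript levels was not tested.

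White adipocytes store triglyceride and also act as endocrine cells. Leptin signals the size of the fat stores to the brain, adiponectin acts on liver and muscle and is known to make them more sensitive to insulin, and resistin was described in the mouse as a fat-derived protein that opposes insulin. Adipsin is the protease that starts the alternative complement pathway, whereas Nampt and apelin are made by many cell types besides adipocytes. RNA from the whole tissue was sequenced, so fewer cells of a type and less RNA per cell cannot be told apart.

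The stretch of genome just before the start of each gene is shown so that the members can be compared with the transcription factors described further on. All 6 symbols matched a promoter in the RefSeq table for GRCm38.p6, the assembly known as mm10. The lines give the 120 bases before the start, 5′ to 3′ on the strand of the gene, and capitals mark a motif. They lie at chr6:29060101-29060220 for Lep, chr16:23146416-23146535 for Adipoq, chr8:3655650-3655769 for Retn, chr10:79890733-79890852 for Cfd and chr12:32820215-32820334 for Nampt, all on the plus strand, and at chrX:48034854-48034973 on the minus strand for Apln.
Lep: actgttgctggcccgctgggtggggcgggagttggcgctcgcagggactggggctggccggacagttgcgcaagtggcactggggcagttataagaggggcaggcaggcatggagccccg
Adipoq: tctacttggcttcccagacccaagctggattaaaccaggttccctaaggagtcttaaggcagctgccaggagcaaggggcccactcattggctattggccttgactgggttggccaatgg
Retn: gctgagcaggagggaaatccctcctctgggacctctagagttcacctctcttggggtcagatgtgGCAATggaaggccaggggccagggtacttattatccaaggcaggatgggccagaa
Cfd: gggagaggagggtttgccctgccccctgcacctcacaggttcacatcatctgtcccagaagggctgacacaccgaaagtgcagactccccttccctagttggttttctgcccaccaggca
Nampt: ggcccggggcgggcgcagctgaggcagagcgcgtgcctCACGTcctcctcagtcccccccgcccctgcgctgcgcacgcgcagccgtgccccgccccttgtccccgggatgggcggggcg
Apln: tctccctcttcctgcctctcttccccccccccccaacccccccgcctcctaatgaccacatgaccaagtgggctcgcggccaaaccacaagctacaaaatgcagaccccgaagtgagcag

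Both strands of the 250 bases before each start were searched for TATAAA, a core promoter element, for GCAAT, recognised by C/EBP factors, for CACGTG, an E-box bound by clock factors, and for ACGTG, the core of hypoxia elements, which the E-box contains. Retn held GCAAT from 55 to 51 bases before its start, and Adipoq held its reverse complement, ATTGC, from 223 to 219 bases before its start, outside the bases printed. Nampt held CACGT, the reverse complement of ACGTG, from 82 to 78 bases before its start. Lep, Cfd and Apln held none of these letters in the window, which says nothing about binding of the factors. Of 32851 RefSeq promoters searched over the same length, 12.4% held TATAAA, 23.1% GCAAT, 6.02% CACGTG and 16.6% ACGTG. The GC content of the same 250 bases ranged from 48.8% for Adipoq to 75.6% for Nampt.

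Of the 6 adipokine transcripts, 4 rose with IMC, namely Lep, Adipoq, Retn and Cfd, and none fell. The largest change was that of Cfd (3.44-fold), followed by Adipoq (2.26-fold), Lep (2.05-fold) and Retn (1.78-fold), while Nampt and Apln did not pass the test. A transcript was called changed at a Benjamini-Hochberg adjusted p under 0.05 in limma, a linear model fitted to the log2 values of all genes. By that threshold 40.9% of all genes were called, 20.0% higher and 21.0% lower, so a call by itself was common in these data. For 3 members (Lep, Adipoq and Cfd) every IMC-treated mouse was above every HFD mouse, which held for 12.5% of all genes. The same 3 were called with a log2 fold change of 1 or more, which held for 1.20% of all genes. The median log2 fold change was 0.94 over the 6 members and -0.03 over all genes.

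**Figure D1:**
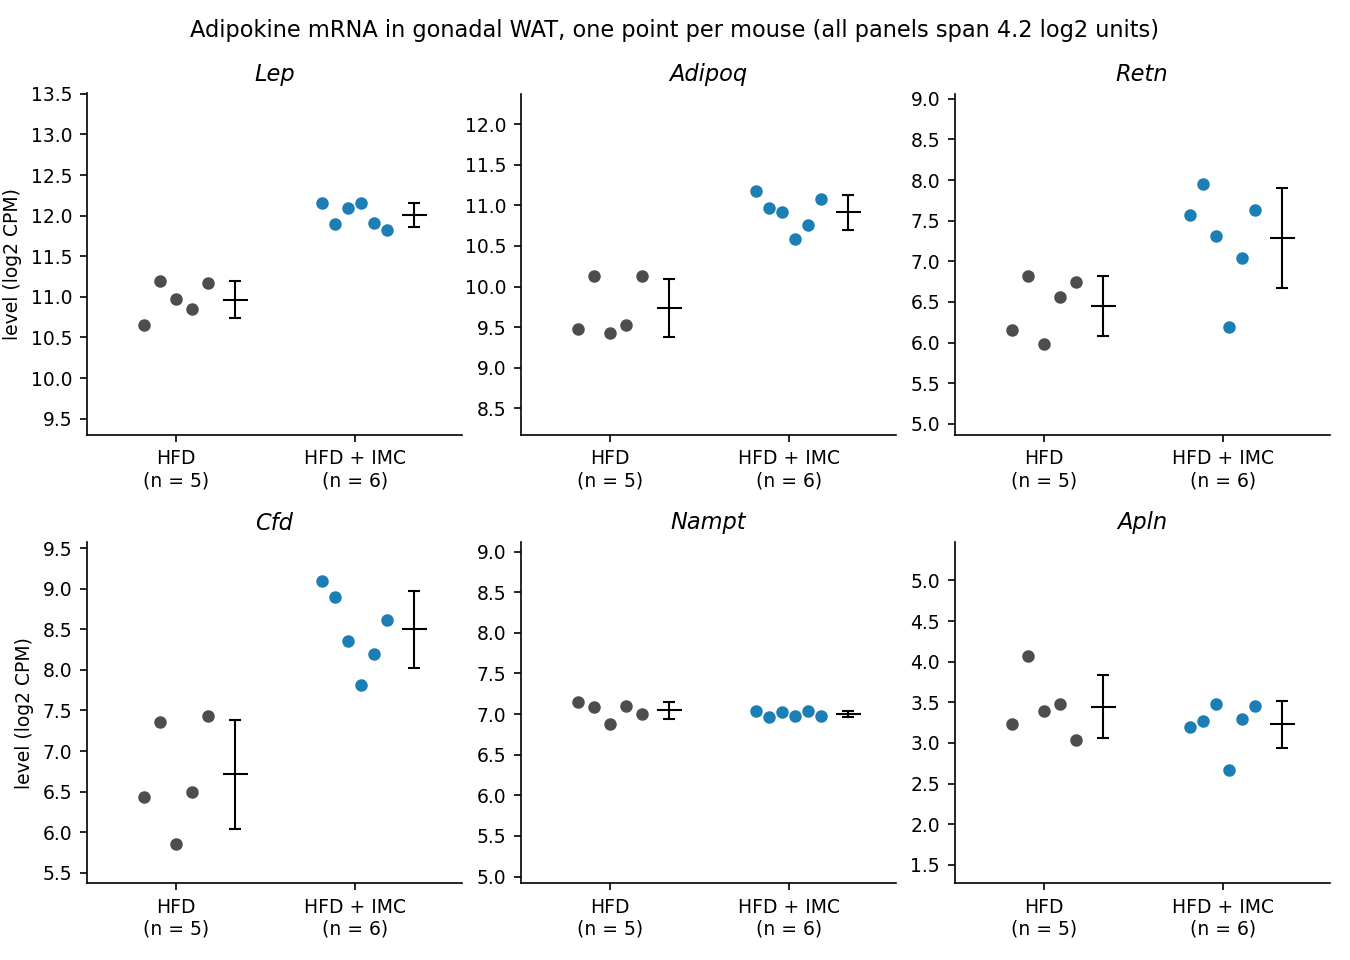
Level of each adipokine transcript in log2 CPM (vertical axis, 1 panel per gene) in each of 5 HFD and 6 HFD + IMC mice, with points for mice and black bars for the mean ± SD. The groups are apart for Lep, Adipoq and Cfd, 5 of 6 IMC-treated mice are above all HFD mice for Retn, and the groups overlap for Nampt and Apln.

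Depth, counted as reads on genes of the table, was 22320022 to 23635249 per HFD mouse and 22619505 to 25155366 per IMC-treated mouse, with overlapping ranges. Lep drew between 35703 and 113251 reads per mouse and Adipoq between 15784 and 53015, while Apln, the lowest member, drew between 158 and 393. The spread expected from counting reads alone was 0.01 log2 CPM for Lep and 0.10 for Apln, below the pooled SD between mice of 0.19 and 0.34. This covers counting error only, because reads amplified by PCR are not independent molecules. The labels give 1 library per mouse.

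Lep (chr6:29060221-29073876, plus strand) encodes leptin, the hormone that restrains feeding in proportion to fat stores. In the HFD mice its level was 1607, 2348, 2003, 1849 and 2301 CPM (reads relative to the scaled library size, here the antilog of the deposited log2 value). In the IMC-treated mice the lowest level was 3616, the median 4116 and the highest 4564 CPM. The IMC-treated mice were all above the highest HFD mouse, with a gap of 0.62 on the log2 scale. On that scale Lep averaged 10.97 ± 0.23 (SD, n = 5) in HFD mice and 12.01 ± 0.15 (SD, n = 6) with IMC, a log2 fold change of 1.04 (SE 0.11, 95% confidence interval 0.79 to 1.29, limma adjusted p = 4.14e-05). The two-sided exact permutation test over the 462 ways of dividing the mice gave p = 0.00216, the smallest it can give. Lep transcripts took up between 0.160% and 0.240% of the reads on listed genes in HFD mice and between 0.360% and 0.450% with IMC, and by mean level Lep was number 17 of all genes.

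Adipoq (chr16:23146536-23157968, plus strand) encodes adiponectin, a hormone made almost entirely by adipocytes. Its level in the HFD mice was 711, 1118, 686, 740 and 1117 CPM. With IMC the lowest was 1541, the median 1969 and the highest 2313 CPM. The lowest IMC-treated mouse was thus above the 2 HFD mice that stood higher than the other 3. On the log2 scale the mean went from 9.74 ± 0.36 (SD, n = 5) to 10.91 ± 0.21 (SD, n = 6), a log2 fold change of 1.18 (SE 0.15, 95% confidence interval 0.85 to 1.51, limma adjusted p = 0.000103). The exact permutation p was again 0.00216.

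Retn (chr8:3655770-3659818, plus strand) encodes resistin. In the HFD mice its level was 71.1, 112, 63.1, 94.3 and 107 CPM. With IMC it ranged from 73.2 to 247 CPM with a median of 174. The IMC-treated mouse at 73.2 CPM (replicate 4) lay among the HFD mice, and the other 5 were above all of them. The log2 mean was 6.45 ± 0.37 (SD, n = 5) in HFD mice and 7.28 ± 0.62 (SD, n = 6) with IMC, giving a log2 fold change of 0.83 (SE 0.26, 95% confidence interval 0.27 to 1.40, limma adjusted p = 0.0221). The two-sided exact permutation p was 0.0303. The call was lost without HFD replicate 1 (log2 fold change 0.76, limma adjusted p = 0.0562) and without HFD replicate 3 (0.72, limma adjusted p = 0.0617), the lowest HFD mice.

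Cfd (chr10:79890853-79892655, plus strand) encodes adipsin, or complement factor D, the serine protease that cleaves factor B. In the HFD mice its level was 86.9, 164, 57.8, 90.1 and 172 CPM. The lowest level with IMC was 225, the median 361 and the highest 547 CPM. No IMC-treated mouse fell within the HFD range, although Cfd had the highest pooled SD of the 6 members (0.57 on the log2 scale, against 0.52 for Retn). The log2 mean was 6.71 ± 0.67 (SD, n = 5) in HFD mice and 8.50 ± 0.47 (SD, n = 6) with IMC, a log2 fold change of 1.78 (SE 0.29, 95% confidence interval 1.17 to 2.40, limma adjusted p = 0.000415), with an exact permutation p of 0.00216. By the size of the change Cfd was number 6 of all 12787 genes, where Adipoq was number 86, Lep 167 and Retn 422.

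Nampt (chr12:32820335-32853369, plus strand) encodes the enzyme that starts the recycling of nicotinamide to NAD, and its protein has also been found outside cells under the name visfatin. Its level in the HFD mice was 142, 135, 118, 137 and 128 CPM. With IMC it ran from 125 to 132 CPM with a median of 128, inside the HFD range. The log2 means were 7.04 ± 0.11 (SD, n = 5) and 7.0 ± 0.04 (SD, n = 6), a difference of -0.04 (SE 0.05, 95% confidence interval -0.15 to 0.06, limma adjusted p = 0.528). The interval bounds any difference in Nampt well below the changes of the 4 transcripts that rose. Nampt overlaps the annotated gene Gdap10, and the strand setting of the count was not given in the sources used here.

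Apln (chrX:48025146-48034853, minus strand) encodes the precursor of apelin, a peptide that acts on vessels and heart. In the HFD mice its level was 9.42, 16.8, 10.5, 11.2 and 8.23 CPM. In the IMC-treated mice the lowest was 6.38, the median 9.74 and the highest 11.1 CPM. The groups overlapped, and the highest value was that of HFD replicate 2. The log2 means were 3.45 ± 0.39 (SD, n = 5) and 3.23 ± 0.29 (SD, n = 6), a difference of -0.22 (SE 0.18, 95% confidence interval -0.60 to 0.17, limma adjusted p = 0.356). The interval extends to -0.60 on the log2 scale, so a fall of that size in Apln is not excluded.

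**Figure D2:**
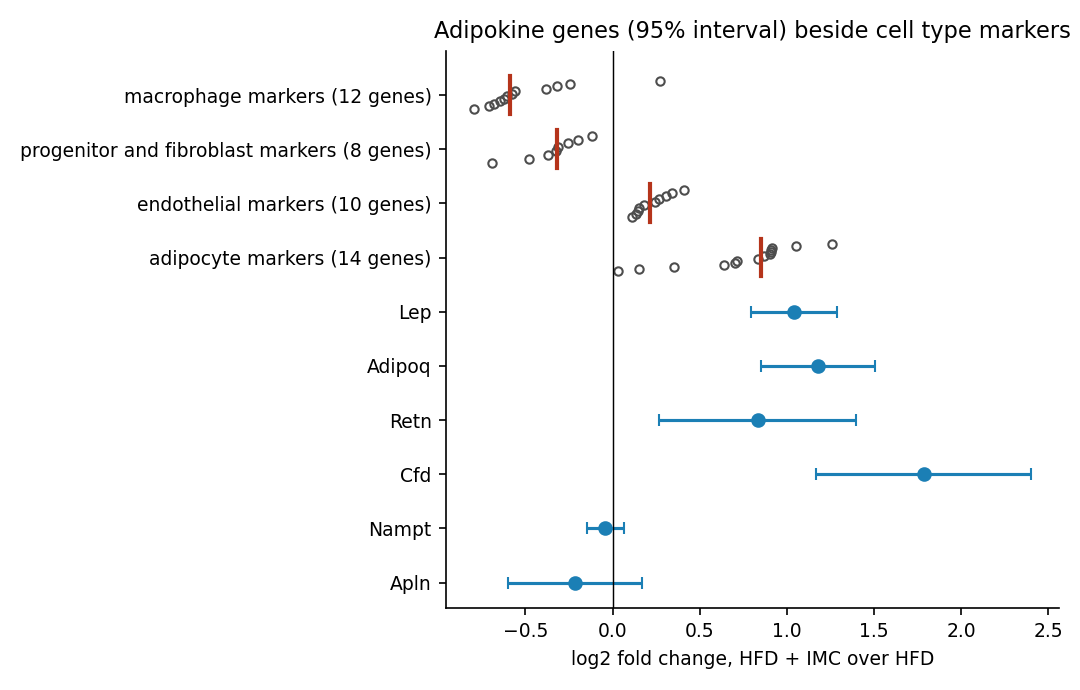
Log2 fold change (HFD + IMC minus HFD, horizontal axis) of each adipokine with its 95% confidence interval in blue, below the single genes of the cell type marker lists as open circles with a red line at each list median. Cfd is at 1.78, Adipoq at 1.18, Lep at 1.04 and Retn at 0.83, against list medians of 0.85 for adipocyte markers and -0.59 for macrophage markers.

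Levels of different genes were compared only after dividing by the length of each gene's annotated exons, as log2 CPM per kb. In HFD mice Adipoq (9.27 ± 0.36, SD, n = 5) and Lep (9.22 ± 0.23) were the highest and did not differ beyond their spread. Cfd (6.83 ± 0.67) and Retn (5.79 ± 0.37) followed, then Nampt (4.71 ± 0.11) and Apln (1.79 ± 0.39). The ranges of Cfd and Retn overlapped, although Cfd was above Retn within each HFD mouse. The order was the same in IMC-treated mice, in which Adipoq stood at 10.45 ± 0.21 (SD, n = 6), Lep at 10.26 ± 0.15, Cfd at 8.61 ± 0.47, Retn at 6.62 ± 0.62, Nampt at 4.67 ± 0.04 and Apln at 1.57 ± 0.29. There the ranges of Adipoq and Lep still overlapped, but those of Cfd (7.93 to 9.21) and Retn (5.53 to 7.29) no longer did. Within each IMC-treated mouse Cfd was again above Retn. The annotated exons of Lep (3354 bases) and Nampt (5054 bases) are longer than those of Cfd (922 bases), and an exon that the tissue does not use would lower the level per kb.

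Cell type markers were read in the same mice, beside 20.0% of all genes called higher and 21.0% called lower. Endothelial markers called higher and mesothelial markers called lower were close to those shares. Of 14 adipocyte markers, among them the lipid droplet genes Plin1 and Cidec, 12 rose and none fell, with a median log2 fold change of 0.85 and a summed level of 27652 to 32093 CPM in HFD mice and 38126 to 43014 CPM with IMC. Of 12 macrophage markers 10 fell and none rose, with a median of -0.59 and a summed level of 8918 to 11483 CPM in HFD mice and 5143 to 7773 CPM with IMC. Of 8 progenitor and fibroblast markers 5 fell and none rose (median -0.32, sums of 8665 to 11025 and 6627 to 8711 CPM), and among them Dcn lost the call without HFD replicate 3 and Cd34 without HFD replicates 2 or 3 or HFD + IMC replicate 2. Of 10 endothelial markers 2 rose, Cdh5 and Egfl7, and none fell (median 0.21, sums of 550 to 756 and 638 to 904 CPM), and Egfl7 kept its call in 4 of the 11 fits that left out a mouse (those without HFD replicates 2 or 5 or HFD + IMC replicates 1 or 4) and in 8 of the 10 other settings, losing it without the variance trend and with total-count scaling. Of 5 mesothelial markers in the table Wt1 fell and none rose (median -0.45, sums of 225 to 310 and 104 to 253 CPM). None of the 6 lymphocyte and 7 epididymis markers looked up had values here, so those cells were not analysed. Plin1, Cidec, Dcn and Cd34 were named after their values were seen. The part of these shifts in the adipokine levels was not tested.

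Each adipokine was therefore also set against the adipocyte markers of the same mouse, as its log2 level minus the mean log2 level of the 14 markers. That mean was 9.58 ± 0.21 (SD, n = 5) in HFD mice and 10.32 ± 0.09 (SD, n = 6) with IMC, a difference of 0.73. Single markers changed by 0.03 to 1.26 on the log2 scale, Slc2a4 the most. Slc2a4 thus rose more than Adipoq or Lep, which lay above the marker mean but not above every marker. Cfd rose beyond the markers by 1.05 (from -2.87 ± 0.50 to -1.82 ± 0.42), Adipoq by 0.45 (from 0.15 ± 0.18 to 0.60 ± 0.15) and Lep by 0.31 (from 1.38 ± 0.10 to 1.69 ± 0.18). The two-sided exact permutation p, adjusted over the 6 members, was 0.0130 for Cfd, 0.0130 for Adipoq and 0.0208 for Lep. On this measure the groups overlapped for Cfd, Adipoq and Lep. For Lep the call was lost when the median of the markers replaced their mean (difference 0.23, adjusted permutation p = 0.0649). For Retn no difference from the markers was detected, at -3.13 ± 0.21 and -3.03 ± 0.57, a difference of 0.10 (exact permutation p = 0.725). The IMC-treated mice were widely spread on this measure, from -4.07 to -2.36. Relative to the markers Nampt was lower by 0.77 and Apln by 0.95, each with an adjusted exact permutation p of 0.0130. Neither transcript passed the limma test by its own level. The marker mean rose by 0.73, while the log2 fold changes were -0.04 for Nampt and -0.22 for Apln. The 2 differences thus mainly carry the rise of the markers and by themselves show no fall of either transcript. A fall of Apln is not excluded, as its 95% confidence interval runs from -0.60 to 0.17.

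A ratio within a mouse does not depend on how the library was scaled, and Adipoq was taken as the reference for the other 5. The log2 ratio of Cfd to Adipoq was -3.02 ± 0.34 (SD, n = 5) in HFD mice and -2.42 ± 0.29 (SD, n = 6) with IMC, so Cfd gained 0.60 on Adipoq, or 1.52-fold. That difference had a two-sided exact permutation p of 0.00866 and an adjusted p of 0.0144 over the 5 ratios, although the groups overlapped. Lep against Adipoq did not pass the test (1.23 ± 0.21 and 1.09 ± 0.28, difference -0.14, exact permutation p = 0.372), nor did Retn (-3.29 ± 0.18 and -3.63 ± 0.45, difference -0.35, exact permutation p = 0.147). Without HFD + IMC replicate 2, the IMC-treated mouse with the highest Retn, the difference for Retn was -0.47 with an adjusted permutation p of 0.0132. The log2 ratio of Nampt to Adipoq went from -2.69 ± 0.37 to -3.91 ± 0.21 and that of Apln from -6.29 ± 0.45 to -7.69 ± 0.22. In both cases the groups did not overlap and the adjusted exact permutation p was 0.00541. Both ratios mainly carry the rise of Adipoq by 1.18, beside log2 fold changes of -0.04 for Nampt and -0.22 for Apln. Neither Nampt nor Apln passed the limma test by its own level, which does not exclude a fall of Apln.

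**Figure D3:**
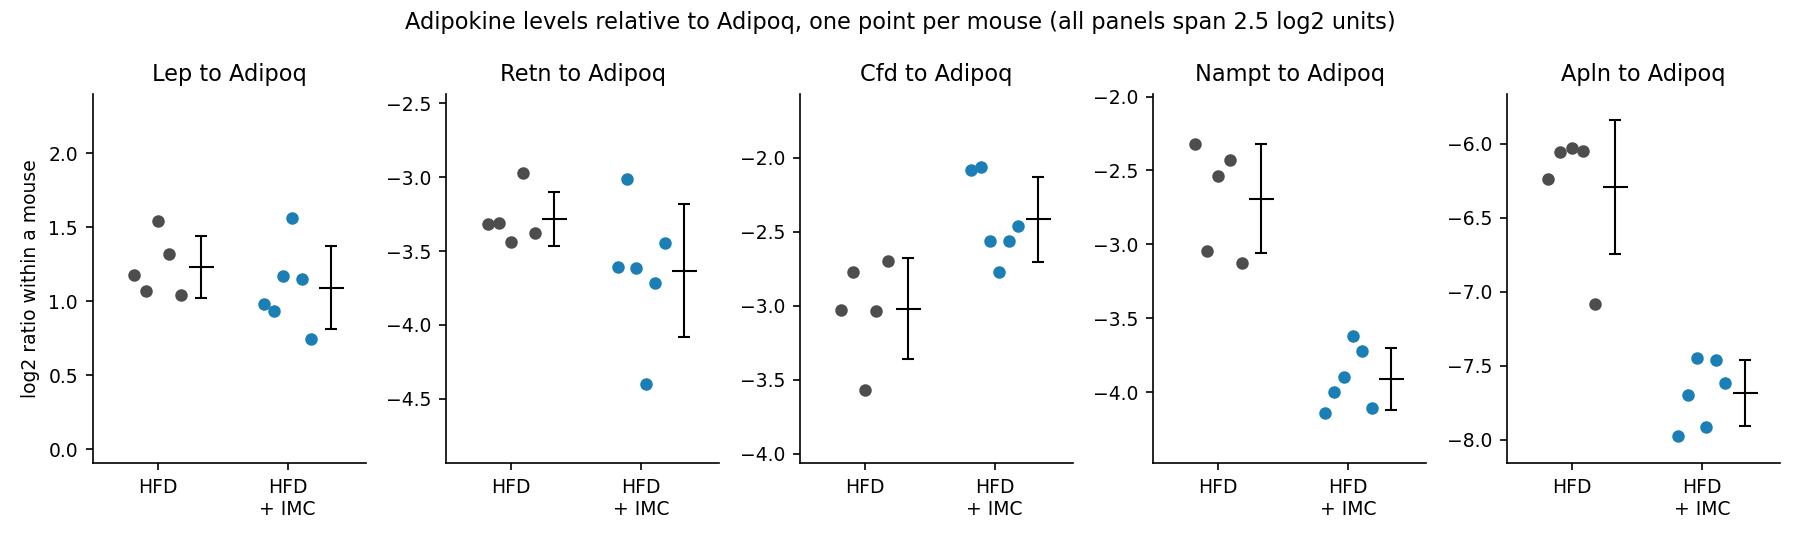
Log2 ratio of each other adipokine to Adipoq within a mouse (vertical axis), with points for 5 HFD and 6 HFD + IMC mice and black bars for the mean ± SD. The ratio is higher with IMC for Cfd by 0.60, changes by -1.22 for Nampt and -1.40 for Apln with no overlap of the groups, and overlaps between the groups for Lep and Retn.

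Within the groups, mice with more Adipoq also had more Cfd and Retn. After each group's mean was subtracted, Pearson's r over the 11 mice was 0.94 between Adipoq and Cfd (Spearman's rho 0.95), 0.83 between Retn and Cfd (rho 0.85) and 0.76 between Adipoq and Retn (rho 0.85). Without the 2 mice farthest from the median in the first gene of each pair, also after subtracting the group means, r was 0.91, 0.76 and 0.79. Over the 11 mice Lep followed this trio less closely, with an r of 0.51 to Adipoq, 0.36 to Cfd and -0.01 to Retn. The r to Adipoq dropped to 0.25 without the 2 mice farthest from the median in Lep. Among the 5 HFD mice the r of Lep was 0.84 to Adipoq, 0.67 to Retn and 0.66 to Cfd. Among the 6 IMC-treated mice these values were -0.19, -0.51 and -0.18. The r between Nampt and Adipoq was 0.07. These values describe 11 libraries that share 1 scaling and 1 tissue mixture per mouse, and no test was made of them.

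**Figure D4:**
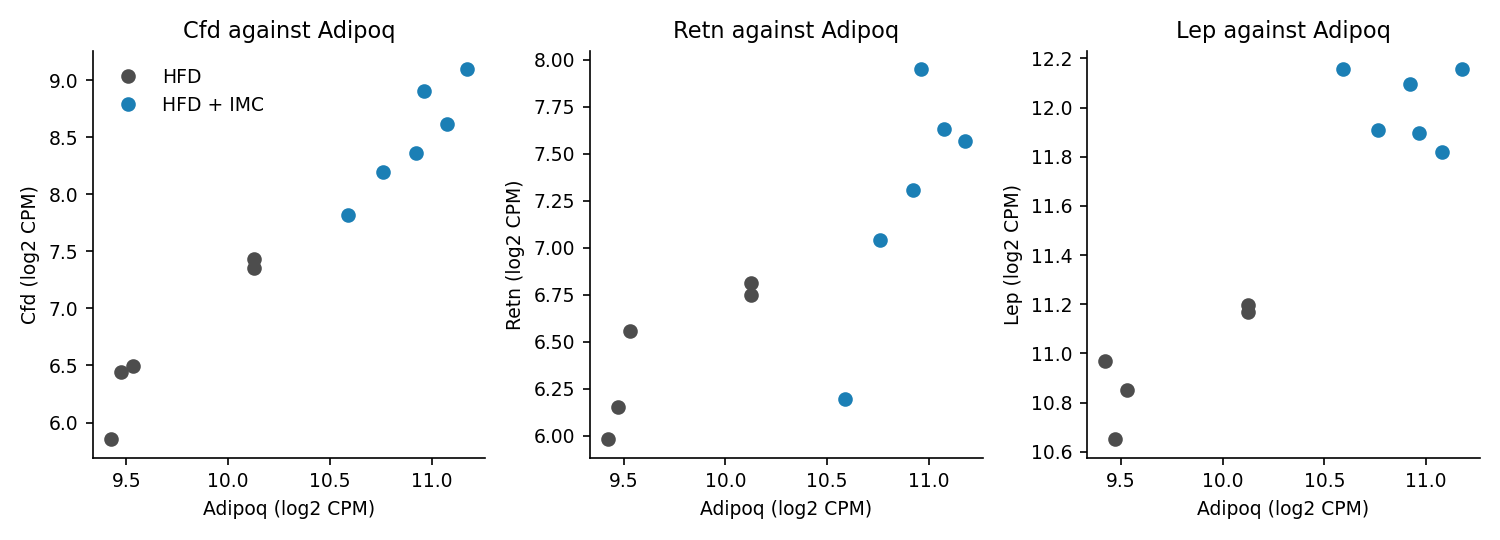
Level of Cfd, Retn and Lep (vertical axis, log2 CPM, 1 panel per gene) against Adipoq (horizontal axis, log2 CPM), 1 point per mouse, coloured by group. Cfd and Retn rise with Adipoq inside each group. Lep rises with Adipoq among the HFD mice (r = 0.84) but not among the IMC-treated mice (r = -0.19).

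The genes whose levels followed a member most closely inside the groups were ranked over the whole table. For Adipoq they were Gstz1 (r = 0.98), Amy1 (0.97) and Ces1d (0.97), and all 3 rose with IMC, by 0.83, 1.05 and 1.02 on the log2 scale. For Cfd they were Orm1 (r = 0.98), an acute phase protein gene, Hibch (0.96) and Inpp5a (0.94). Lep was followed by Syp (r = 0.93), Cacng7 (0.93) and Rap1gap2 (0.92), and Retn by 8430408G22Rik (0.97), Ttpa (0.95) and Shroom2 (0.94). The closest genes were less close for Nampt, with Bcl10 (r = 0.87), Prdm2 (0.85) and Cd244 (0.83), and for Apln, with Peg13 (0.90), Rgs4 (0.86) and Rbm18 (0.83). With 11 mice and 12787 genes, some genes reach a high r in any such ranking.

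Among the receptors and binding proteins of adipokines, 4 of 9 rose and 2 fell, with a median log2 fold change of -0.03, that of all genes. Here and in the lists that follow, counts stand beside 20.0% of all genes called higher and 21.0% called lower. Adipor2, an adiponectin receptor, rose from 8.72 ± 0.13 to 9.36 ± 0.07 log2 CPM with no overlap of the groups, a log2 fold change of 0.64 (SE 0.06), whereas Adipor1, the other receptor, was at 7.70 ± 0.04 and 7.67 ± 0.06 (log2 fold change -0.03, SE 0.04, limma adjusted p = 0.581). Whether the receptors differed in response was not tested. The insulin receptor Insr rose by 0.36 (SE 0.08) and the apelin receptor Aplnr by 0.35 (SE 0.10). Cdh13, which encodes the adiponectin-binding T-cadherin, rose by 0.40 (SE 0.15, limma adjusted p = 0.0453). Cdh13 kept its call in 4 of the 11 fits that left out a mouse, losing it without HFD replicates 1, 3 or 4 and without HFD + IMC replicates 2, 4, 5 or 6. It also lost the call without the variance trend and with total-count scaling, and it overlaps 4 other annotated genes. Cap1 and Tlr4, both reported to bind resistin, fell by 0.34 (SE 0.07) and by 0.27 (SE 0.07), and are named after their values were seen. The leptin receptor Lepr was low, at 2.08 ± 0.14 and 1.93 ± 0.32 log2 CPM (log2 fold change -0.15, SE 0.15, limma adjusted p = 0.450).

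Around adipsin, 1 of 11 genes of the alternative complement pathway rose and 5 fell, with a median log2 fold change of -0.27. The gene that rose was Cfb, factor B, the substrate of adipsin, which went from 9.02 ± 0.12 to 9.51 ± 0.09 log2 CPM, a log2 fold change of 0.49 (SE 0.06) with no overlap of the groups. C3, whose product joins factor B in the convertase, stood at 11.96 ± 0.14 and 11.80 ± 0.15 log2 CPM (log2 fold change -0.16, SE 0.10, limma adjusted p = 0.25). Among the genes that fell were the anaphylatoxin receptors C3ar1, by 0.59 (SE 0.14), C5ar1, by 0.58 (SE 0.12), and C5ar2, by 0.46 (SE 0.12), together with properdin, Cfp, by 0.43 (SE 0.09). C5ar2 and Cfp were singled out after their values were seen. The summed macrophage markers fell in the same mice, and their part in these changes was not tested.

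Around leptin, 2 of 9 signalling genes rose and 3 fell (median -0.02). Irs2 rose by 0.72 (SE 0.13) and Irs1 by 0.34 (SE 0.09), both adaptors of the insulin receptor. Socs1, a feedback inhibitor of cytokine receptors, fell by 0.85 (SE 0.18) at a low level of 22 reads in its lowest mouse. Ptpn1, the phosphatase that dampens leptin and insulin receptors, fell by 0.37 (SE 0.08), and with Irs1 is named after its value was seen. Socs3, the inhibitor induced by leptin, fell by 0.39 (SE 0.15, limma adjusted p = 0.0474) and kept its call in 3 of the 11 fits that left out a mouse (those without HFD replicate 3, HFD replicate 5 or HFD + IMC replicate 1) and in 7 of the 10 other settings, losing it without the variance trend, with median centring and with median-of-ratios scaling.

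Around adiponectin, 3 of 12 genes of its assembly and action rose and 1 fell (median 0.01). That was a smaller share of calls than the 40.9% over all genes. Ppara, the nuclear receptor of fatty acid oxidation, rose by 0.99 (SE 0.19), Prkaa2, a catalytic subunit of AMP-activated kinase, by 0.85 (SE 0.13), and Gstk1, a chaperone of adiponectin assembly, by 0.59 (SE 0.11). Erp44, which retains adiponectin in the secretory pathway, fell by 0.15 (SE 0.05). It was singled out after its value was seen, and its call was lost without HFD replicates 1 or 2 and without HFD + IMC replicate 2. Of 6 paralogs of resistin and adiponectin in the table, C1qtnf1 rose by 0.44 (SE 0.11) and C1qtnf6 fell by 0.28 (SE 0.06). The share of paralogs called was also below that over all genes.

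Around Nampt, 3 of 17 genes of NAD synthesis and use rose and 1 fell (median -0.01). That was a smaller share of calls than the 40.9% over all genes. Nnmt, which methylates nicotinamide and removes it from recycling, rose from 6.86 ± 0.23 to 7.50 ± 0.13 log2 CPM, a log2 fold change of 0.64 (SE 0.10). Nmnat1 rose by 0.31 (SE 0.08), the NAD kinase Nadk2, chosen after its value was seen, rose by 0.27 (SE 0.07), and Bst1, an ectoenzyme that uses NAD, fell by 0.65 (SE 0.18). Around Apln, 4 of 6 genes of peptide processing and angiogenesis rose and none fell (median 0.40). They were Mme, a peptidase able to cleave apelin, by 0.82 (SE 0.10), Vegfa by 0.56 (SE 0.10), Epas1 by 0.49 (SE 0.07) and Hif1a, named after its value was seen, by 0.31 (SE 0.06).

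Transcription factors known to act on adipokine genes moved mostly upward, with 11 of 16 higher, 1 lower and a median log2 fold change of 0.35. Klf14 rose by 1.64 (SE 0.31), Prdm16 by 0.79 (SE 0.16) and Srebf1, a driver of lipid synthesis, by 0.79 (SE 0.10). Pparg and Cebpa, the master regulators of adipocyte differentiation, rose by 0.70 (SE 0.11) and 0.35 (SE 0.09), and they are also adipocyte markers in the list above. Klf4 was the only factor of the list to fall, by 0.27 (SE 0.10, limma adjusted p = 0.0477), and kept its call in 4 of the 11 fits that left out a mouse (those without HFD replicate 3 or HFD + IMC replicates 1, 5 or 6) and in 6 of the 10 other settings, losing it with array weights, without the variance trend, with median centring and with median-of-ratios scaling. Pparg, Cebpa and Klf4 were named after their values were seen.

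Beyond the 6 members, 11 of 22 other secreted adipose factors rose and 4 fell, with a median log2 fold change of 0.21. Hp, haptoglobin, rose from 11.84 ± 0.35 to 13.16 ± 0.28 log2 CPM, a log2 fold change of 1.31 (SE 0.18). Sfrp5, a secreted Wnt antagonist, rose by 1.26 (SE 0.16), and Fgf21, a metabolic hormone, rose by 0.92 (SE 0.25) from a level at which the lowest mouse had 12 reads. The factors that fell were the cytokine gene Tnf, by 0.70 (SE 0.17), Metrnl, by 0.54 (SE 0.08), Grn, by 0.45 (SE 0.07), and Il18, by 0.33 (SE 0.12). These 4 were named after their values were seen, and Il18 kept its call in 3 of the 11 fits that left out a mouse (those without HFD replicate 5 or HFD + IMC replicates 1 or 2).

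**Figure D5:**
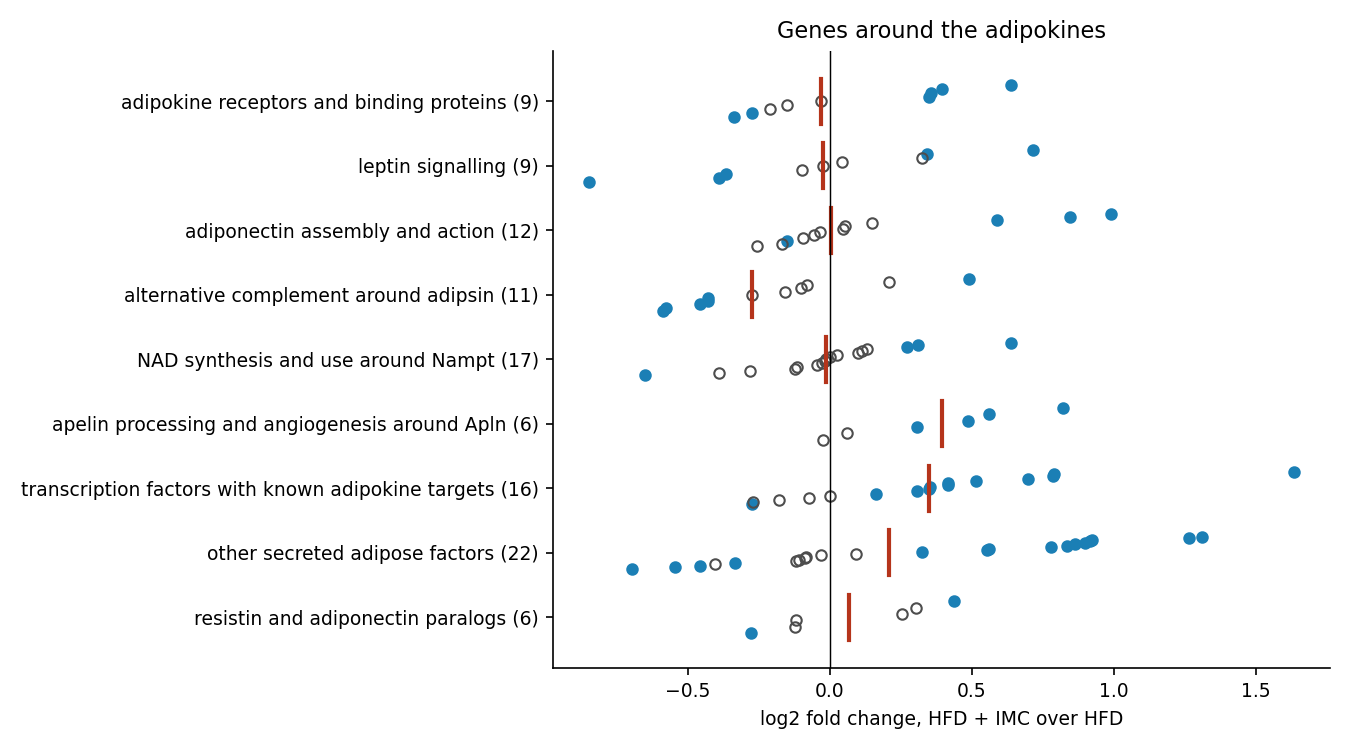
Log2 fold change (HFD + IMC minus HFD, horizontal axis) of the single genes of 9 lists around the adipokines, filled where the limma adjusted p was under 0.05 and open where it was not, with a red line at each list median and the number of listed genes in parentheses. The transcription factor and apelin lists lie mostly above 0, with medians of 0.35 and 0.40, and the complement list mostly below, with a median of -0.27.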

How the data were processed

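RNA of gonadal WAT from 5 HFD and 6 HFD + IMC mice, 1 library per mouse, was analysed. The authors made directional libraries, trimmed reads with Trim Galore, aligned them to mm10 with STAR, counted them per gene, removed low genes, scaled by upper quartile and deposited log2 CPM values, which also hold columns of their own edgeR comparison (log2 fold change, mean log2 CPM, likelihood-ratio statistic, p and FDR) that were not used. Every value corresponded to a whole number of reads (tolerance 0.01 reads), which gave the depth.

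The values were fitted with limma 3.58.1 in R 4.3.3 (lmFit, eBayes with trend, group only, Benjamini-Hochberg over 12787 genes), after the script had been tested on simulated data. Single values were compared by exact permutation. Groups came from the labels and replicate numbers only name mice. P-values measure the spread between these mice, which were group housed, and which of them shared a cage is not stated.

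Named from each list were called genes, up to 3 with the largest absolute log2 fold change, and receptors or substrates of members, with 3 most alike genes per member. This rule picked 42 list genes, 15 of them overlapping another RefSeq gene, and not all the cell type markers it picked are printed here. The members and lists were chosen with earlier results of these data known. Gene coordinates are from RefSeq for GRCm38.p6 and exon lengths from GENCODE M21 for the same assembly. The value of 1 list gene is not reported here. Alternatives covered variance moderation, weights, scaling, the added constant, filters, voom and leaving out each mouse.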

Additional observations from a re-analysis of the deposited data

Results flagged for a closer look

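Of 34 groups of values checked for a mouse far from the others of its group by Dixon's criterion, 3 held one, and chance gives about 1 group in 20. The log2 ratio of Retn to Adipoq in HFD replicate 4 was -2.97, where the nearest other HFD mouse was at -3.31. The log2 ratio of Apln to Adipoq in HFD replicate 5 was -7.08, where the nearest was at -6.24. The level of Apln in HFD + IMC replicate 4 was 2.67 log2 CPM, where the nearest IMC-treated mouse was at 3.20. The same mouse had the lowest Retn, Adipoq and Cfd of the IMC-treated group.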

How the results depend on the processing

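Lep, Adipoq and Cfd passed the test in the same direction in all 11 fits that left out a mouse and all 10 other settings, with log2 fold changes of 0.96 to 1.10, 1.10 to 1.28 and 1.57 to 1.96 without a mouse. Retn ranged from 0.70 to 1.05 without a mouse and lost its call without HFD replicate 1 (0.76) and HFD replicate 3 (0.72), so the count of members called was 3 or 4, while the other settings gave 4. Nampt ranged from -0.08 to -0.01 and Apln from -0.32 to -0.06. The difference of Retn from the adipocyte markers changed sign without HFD + IMC replicate 2 (-0.032, range -0.032 to 0.31), and its ratio to Adipoq passed the test without that mouse (-0.47, range -0.47 to -0.19). With the median of the markers, Lep lay 0.23 above them and missed the threshold. The causes were not tested. Calls over all genes numbered 4299 to 5125 without a mouse and 5053 to 5479 otherwise. Scaling by total reads moved the median of all genes from -0.03 to -0.06 and the share of higher among called genes from 48.8% to 40.3%. Of 1823 refits of the list genes, 66 lost the call and none changed sign.

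No paired analysis was possible because the labels give the groups no shared replicate numbers. Even for Apln, at 158 to 393 reads, the spread from counting (0.10) was below the SD between mice (0.34).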
